A study of Mus musculus with 9 samples.

Results

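This section describes 10 genes of lipid droplets and lipolysis in cultured mouse primary macrophages kept under different oxygen levels. The genes are Hilpda, G0s2, Plin2, Plin3, Pnpla2, Abhd5, Lipe, Mgll, Dgat1 and Dgat2, and they were 10 of the 34866 genes in the expression tables. They were chosen by symbol for their known roles, and each was found under 1 Ensembl identifier. The change of Hilpda in these samples was known when the set was drawn up, so its values are given as a description and its test is not used. Whether values of the other 9 entered the choice is not recorded, so their p-values place them among all genes and are not independent evidence.

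Culture medium was alpha-MEM supplemented with serum and with L929-conditioned medium, a source of macrophage growth factor, and the mRNA was sequenced in 3 groups of 3 biological replicates. Controls stayed at standard oxygen throughout, for 7 days. For acute hypoxia, 3 hours at 1% oxygen followed the standard condition, and chronic hypoxia lasted 7 days at 1% oxygen. The labels name no genotype, strain, age, sex or tissue of origin, and no treatment other than oxygen. Nothing says whether replicates came from separate animals, so the spread between them may be partly technical.

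Macrophages store surplus fatty acids as triglyceride and sterol ester in lipid droplets, organelles with a neutral lipid core and a coat of proteins. DGAT1 and DGAT2 join the last fatty acid to make triglyceride, and perilipins such as PLIN2 and PLIN3 cover the droplet. Breakdown runs in steps: PNPLA2 (adipose triglyceride lipase, ATGL) takes off the first fatty acid with the help of its co-activator ABHD5 (CGI-58), LIPE (hormone-sensitive lipase) the next, and MGLL (monoacylglycerol lipase) the last. HILPDA and G0S2 are small proteins that bind PNPLA2 and inhibit it. Hilpda and Plin2 are known targets of hypoxia-inducible factors (HIF), which bind the core letters ACGTG and GCGTG.

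Because HIF binding is the best known link between oxygen and these genes, the start sites of the members were searched for these letters. The windows were those of RefSeq on GRCm38.p6, 300 bases long, from 250 before a start site to 50 after its first base, and 8 of the 10 members had at least 1 window. Either motif, ACGTG or GCGTG on either strand, was present in 43.8% of all 32851 windows. The palindrome CACGTG holds ACGTG on both strands and counts as 2 matches, and it was present in 7.2% of windows. The stretches below are 30 bases each, 5′ to 3′ on the strand of the gene, with every match in capitals. They are shown for Hilpda and Plin2, the members whose acute hypoxia libraries all lay above those in standard oxygen, and for G0s2, the other inhibitor of PNPLA2.
Hilpda, 111 bases before its second start site, chr6:29272503-29272532, plus strand: caaccgcgagccGCGTGctttccgtgactc
Hilpda, 43 bases before its second start site, chr6:29272571-29272600, plus strand: gatggccagcggACGTGccccagggcgagc
Hilpda, 8 bases before its second start site, chr6:29272606-29272635, plus strand: caggttcggtacGCGTGcgcagtctccgag
Plin2, 86 bases before its start site, chr4:86670128-86670157, minus strand: ggttggggttccCACGCcctcatccccaat
Plin2, 4 bases before its start site, chr4:86670046-86670075, minus strand: cagctgggctatCACGTGgctcggaggctt
G0s2, 142 bases before its start site, chr1:193273313-193273342, minus strand: cacacagcagggGCGTGcactactcgtggt
The window of the second Hilpda start site held 3 matches and that of Plin2 also 3, while those of Plin3 and Pnpla2 held 0. Abhd5 had 1 match, the windows of Lipe 0 and 3, and those of Mgll 4 and 7. The first start site of Hilpda had 1 match, which is the first stretch above, and G0s2 had 1. A match is a description of the letters and not a binding site.

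The cells had the transcripts of macrophages. Of 8 macrophage markers, 7 were at 1 TPM or more in all 9 libraries (TPM is a length-corrected share of the transcripts of a library). The summed level of the 8 was 56605 to 74770 TPM, and most of it was Lyz2, at 52793 to 70403 TPM. Mrc1 was the exception, at 0.247 to 39.0 TPM. Of 7 adipocyte markers, Lep, Adig and Cfd were listed at 0 in every library, and the summed level was 0.17 to 1.24 TPM in standard oxygen, 0.19 to 1.27 in acute and 0.05 to 2.64 in chronic hypoxia. Summed fibroblast, dendritic cell and lymphocyte markers stayed under 1 TPM in each library, between 0.03 and 0.97. Neutrophil markers summed to 10.8 to 39.2 TPM in standard oxygen, 13.3 to 36.2 in acute and 52.1 to 84.2 in chronic hypoxia. Most of that sum was Mmp8, while Elane, Mpo and Ly6g were each under 0.8 TPM. Camp was at 0.133 to 2.03 TPM. Ngp went against the sum, at 0.221 to 3.81 TPM in standard oxygen and acute hypoxia and at most 0.208 TPM in chronic hypoxia. The part of these in the results below was not tested. In such bulk libraries fewer cells of a type and less RNA per cell cannot be told apart. The 3 libraries whose descriptions share the digits here called code Z, 1 in each group, stood apart from the other 6 (codes X and Y) on the first principal component, which held 36.9% of the variance over 11065 genes. Values are therefore given by code, and differences also without code Z.

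All 10 members reached a mean of 1 TPM over both groups of each comparison, Mgll in both comparisons of chronic hypoxia through the other group (0.692 TPM in chronic hypoxia). The counts here are over the 9 members other than Hilpda. Without a block 0 of 9 passed a limma adjusted p under 0.05 in each comparison, with 1 at an unadjusted p under 0.05 (Plin2, Pnpla2 and Plin2). Of all genes tested 0.0273% of 10987 passed in acute hypoxia against standard oxygen, 2.69% of 11067 in chronic hypoxia against standard oxygen and 0.695% of 11087 in chronic against acute hypoxia. With the sample code as a block the counts in limma were 0 (3 at an unadjusted p under 0.05), 3 and 3 of 9, beside 0.71%, 18.4% and 15.5% of all genes. The 3 in chronic hypoxia against standard oxygen were Pnpla2, Lipe and Dgat1 (all lower, beside 3.3% of all genes), and the 3 in chronic against acute hypoxia were Plin2, Dgat1 and Dgat2 (all lower, beside 3.42%). Without the libraries of code Z the counts were 1 of 9, 3 of 8 (Dgat2 then being below the filter) and 3 of 9, beside 2.95%, 21.1% and 16.3% of all genes. The first was Plin2, the next 3 were Plin2 (higher) and Pnpla2 and Dgat1 (lower, beside 4.07%), and the last 3 were Plin2, Dgat1 and Dgat2 (all lower, beside 3.48%). Among the last 3, Dgat2 reached the filter only through its acute libraries, so its call was partly fixed by the filter. The median log2 fold change of the 9 was -0.01, -0.37 and -0.44 in the 3 comparisons, beside 0.01, 0.16 and 0.14 for all genes tested. With median-of-ratios rescaling and the code block, 655 of 11067 and 561 of 11087 genes passed as lower in the comparisons of chronic hypoxia. With the code block and no rescaling these counts were 365 and 379, and the same members passed in both fits.

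**Figure D1:**
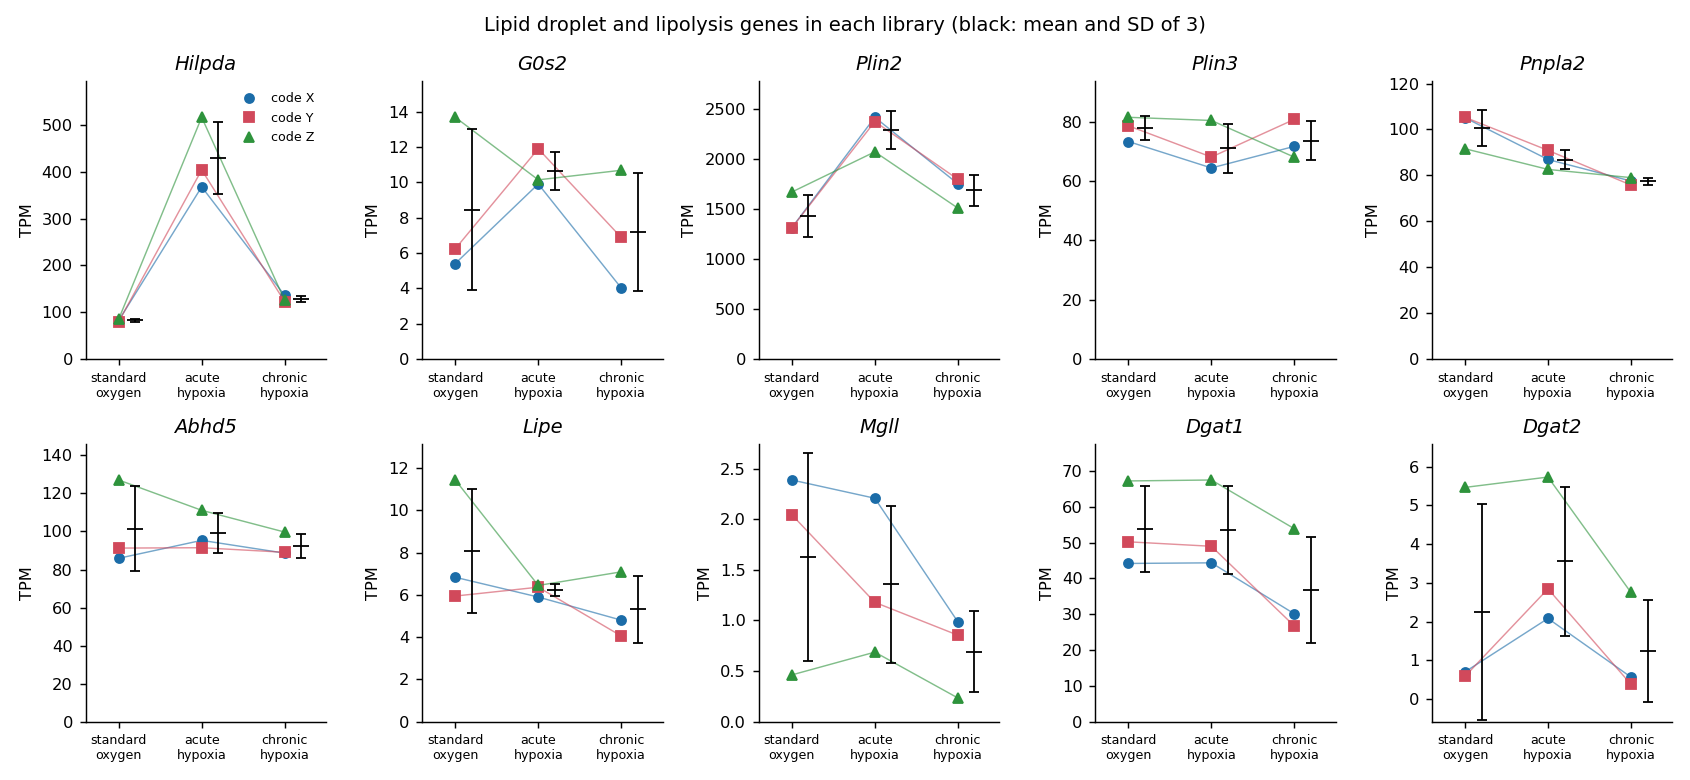
TPM of the 10 genes (vertical axes) in the 3 oxygen groups, with 1 point per library, lines joining libraries of the same code and the mean and SD of 3 libraries in black. Hilpda and Plin2 peak in acute hypoxia, and the mean of Pnpla2 is lower from group to group. The code Z libraries (triangles) are the highest of their group in Abhd5, Lipe, Dgat1 and Dgat2 and the lowest in Mgll.

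Hilpda (ENSMUSG00000043421, chr6:29272488-29275446, plus strand, protein-coding) encodes the hypoxia-inducible inhibitor of PNPLA2. In codes X, Y and Z it was 82.3, 79.9 and 85.4 TPM in standard oxygen. The same codes gave 368, 404 and 517 TPM in acute hypoxia and 136, 123 and 125 TPM in chronic hypoxia. No library of one group overlapped another group. The mean level in acute hypoxia was 5.21 times and in chronic hypoxia 1.55 times that in standard oxygen. Among all genes of a library it ranked between 1309 and 1398 in standard oxygen, between 269 and 334 in acute hypoxia and between 889 and 1029 in chronic hypoxia. Its log2 fold change of 2.35 in acute hypoxia was the 11th highest of the 10987 genes tested. In chronic hypoxia its log2 fold change of 0.63 had place 1056 of 11067 and became 0.45 after median-of-ratios rescaling.

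G0s2 (ENSMUSG00000009633, chr1:193272161-193273217, minus strand) encodes the other inhibitor and was far less abundant. In codes X, Y and Z it was 5.40, 6.24 and 13.7 TPM in standard oxygen, then 9.91, 11.9 and 10.1 TPM in acute and 4.02, 6.88 and 10.7 TPM in chronic hypoxia. The groups overlapped in every comparison. In codes X and Y the acute library was the highest of its code, by log2 differences of 0.77 and 0.83 over standard oxygen, whereas in code Z it was the lowest, at -0.40. The log2 fold change was 0.40 ± 0.313 (SE) in acute hypoxia, with a limma adjusted p of 0.969, which became 0.80 with an adjusted p of 0.0586 without code Z. In chronic hypoxia it was -0.19 ± 0.415 (SE), with a limma adjusted p of 0.824. The 95% interval of that difference ran from -1.18 to 0.81.

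Plin2 (ENSMUSG00000028494, chr4:86648386-86670060, minus strand) encodes the main droplet coat protein of macrophages and was by far the most abundant member, between places 38 and 96 among all genes of a library. Its values in codes X, Y and Z were 1312, 1312 and 1669 TPM in standard oxygen. They were 2417, 2374 and 2071 TPM in acute hypoxia and 1752, 1797 and 1509 TPM in chronic hypoxia. All 3 acute libraries lay above all others, and chronic hypoxia overlapped standard oxygen only through the code Z libraries. The log2 fold change in acute hypoxia was 0.68 ± 0.133 (SE), higher in 3 of 3 code pairs, and limma gave an adjusted p of 0.209 unblocked and 0.132 when blocked by code. Without code Z it was 0.87, with a limma adjusted p of 0.00826. From acute to chronic hypoxia Plin2 differed by -0.44 ± 0.13 (log2, SE). This passed with the code block (limma adjusted p 0.0229) and not without it (0.139). Between chronic hypoxia and standard oxygen its log2 fold change was 0.24 ± 0.144 (SE; limma adjusted p 0.366), or 0.06 after rescaling. Without code Z it was 0.44 (limma adjusted p 0.0121). Its longest transcript shares 1.60% of its 75-base stretches with Gm12551, so a small part of its reads is uncertain.

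Plin3 (ENSMUSG00000024197, chr17:56277476-56292873, minus strand), a coat protein that moves between cytosol and droplets, stayed between 64.5 and 81.6 TPM in all 9 libraries. Its log2 fold changes were -0.14, -0.08 and 0.05 in acute against standard, chronic against standard and chronic against acute, with limma adjusted p-values of 0.973, 0.675 and 0.845. After rescaling they were -0.16, -0.26 and -0.10. The 95% intervals of the 3 differences lay between -0.40 and 0.35 without rescaling, so larger changes were outside them in that fit.

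Pnpla2 (ENSMUSG00000025509, chr7:141455198-141460743, plus strand), the lipase that starts triglyceride breakdown, had a lower mean level in each step. Codes X, Y and Z gave 105, 105 and 91.6 TPM in standard oxygen, then 86.9, 90.9 and 82.6 TPM in acute and 77.5, 75.8 and 79.0 TPM in chronic hypoxia. The 3 groups did not overlap. Within each code the level fell in the order standard, acute, chronic, and that order within codes held for 1.29% of 11065 genes. The mean level in chronic hypoxia was 0.769 times that in standard oxygen. The log2 fold change there was -0.37 ± 0.0965 (SE), for which limma gave an adjusted p of 0.0971 unblocked and 0.0399 when blocked by code. The level was lower in 3 of 3 pairs, and without code Z it was -0.45 (limma adjusted p 0.0139). In acute hypoxia the log2 fold change was -0.21 ± 0.0952 (SE), and limma gave an adjusted p of 0.757 unblocked and 0.259 when blocked by code.

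Among the 9 members other than Hilpda, groups did not overlap for 2 (Plin2 and Pnpla2) in acute hypoxia against standard oxygen, beside 12.5% of all genes tested. It was 1 of 9 (Pnpla2) in chronic hypoxia against standard oxygen, beside 29.6%, and 2 of 9 (Plin2 and Pnpla2) in chronic against acute hypoxia, beside 27.8%. The last share is near that of all genes.

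Abhd5 (ENSMUSG00000032540, chr9:122351608-122381524, plus strand), the co-activator of PNPLA2, had about the same level as Pnpla2. It was 85.9 to 127 TPM in standard oxygen, 91.4 to 111 in acute and 88.6 to 99.7 in chronic hypoxia, and the highest value of each group was its code Z library. Its log2 fold changes of -0.01, -0.11 and -0.10 in acute against standard, chronic against standard and chronic against acute had limma adjusted p-values of 1.00, 0.721 and 0.657. The differences were smaller than the spread between replicates in standard oxygen.

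Lipe (ENSMUSG00000003123, chr7:25379527-25398710, minus strand), which encodes hormone-sensitive lipase, was low. Codes X, Y and Z gave 6.84, 5.95 and 11.4 TPM in standard oxygen, then 5.90, 6.37 and 6.45 TPM in acute and 4.81, 4.06 and 7.09 TPM in chronic hypoxia. In chronic hypoxia it was lower than in standard oxygen within each code, by 0.43, 0.46 and 0.62 on the log2 scale, although the groups overlapped. The log2 fold change of -0.50 ± 0.279 (SE) reached an adjusted p in limma of 0.333 unblocked and 0.0389 when blocked by code (SE 0.107). Without code Z it was -0.45 and did not pass (limma adjusted p 0.0958).

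Mgll (ENSMUSG00000033174, chr6:88724412-88828360, plus strand), which encodes the lipase of the last step, was the lowest member, at 0.235 to 2.39 TPM. Its value in code Z was under 0.7 TPM in every group and the lowest of its group. Codes X, Y and Z gave 2.39, 2.04 and 0.462 TPM in standard oxygen and 0.987, 0.855 and 0.235 TPM in chronic hypoxia. It was lower in chronic hypoxia in 3 of 3 pairs, at -0.58 ± 0.397 (log2, SE), and limma gave an adjusted p of 0.434 unblocked and 0.132 when blocked by code. The gene reached the filter there only through standard oxygen, so this direction was partly fixed by the filter. At such levels the pseudocount of 1 TPM compresses the difference, and the depth behind it is unknown. Exons of Abhd5, Lipe and Mgll overlap genes on the opposite strand, and whether counting used strand is not given in the sources used here, so reads there cannot be told apart.

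Dgat1 (ENSMUSG00000022555, chr15:76502015-76511953, minus strand), 1 of the enzymes of the last step of triglyceride synthesis, kept its level for 3 hours and was lower after 7 days. Codes X, Y and Z gave 44.2, 50.2 and 67.2 TPM in standard oxygen. Acute hypoxia gave 44.4, 49.0 and 67.5 TPM. Chronic hypoxia gave 30.1, 26.7 and 53.9 TPM. Between acute hypoxia and standard oxygen the difference within a code was at most 0.04 on the log2 scale in size. Between chronic hypoxia and standard oxygen it was -0.54, -0.89 and -0.31 in codes X, Y and Z. The log2 fold change of -0.58 ± 0.287 (SE) reached an adjusted p in limma of 0.284 unblocked, 0.0399 when blocked by code and 0.015 without code Z. Against acute hypoxia it was -0.57 ± 0.288 (SE), with 0.31, 0.0361 and 0.0164 in the same order.

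Dgat2 (ENSMUSG00000030747, chr7:99153658-99182719, minus strand), the other enzyme of that step, was much less abundant than Dgat1. In codes X and Y it went from 0.703 and 0.589 TPM in standard oxygen to 2.08 and 2.85 TPM in acute hypoxia, and was 0.568 and 0.382 TPM in chronic hypoxia. In code Z it was 5.46, 5.73 and 2.75 TPM in the same order. The acute library was the highest of each code, as for Plin2, which was so for 2 of the 9 members other than Hilpda and 4.28% of 11065 genes. Dgat2 differed between chronic and acute hypoxia by -1.10 ± 0.47 (log2, SE), and limma gave an adjusted p of 0.249 unblocked, 0.0296 when blocked by code and 0.0282 without code Z. Its log2 fold change in acute hypoxia of 0.73 ± 0.598 (SE) reached 0.973, 0.334 and 0.0797 in the same 3 limma fits (adjusted p). Without code Z, Dgat2 reached the filter in both of these comparisons only through its acute libraries, so a difference there was partly fixed by the filter.

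**Figure D2:**
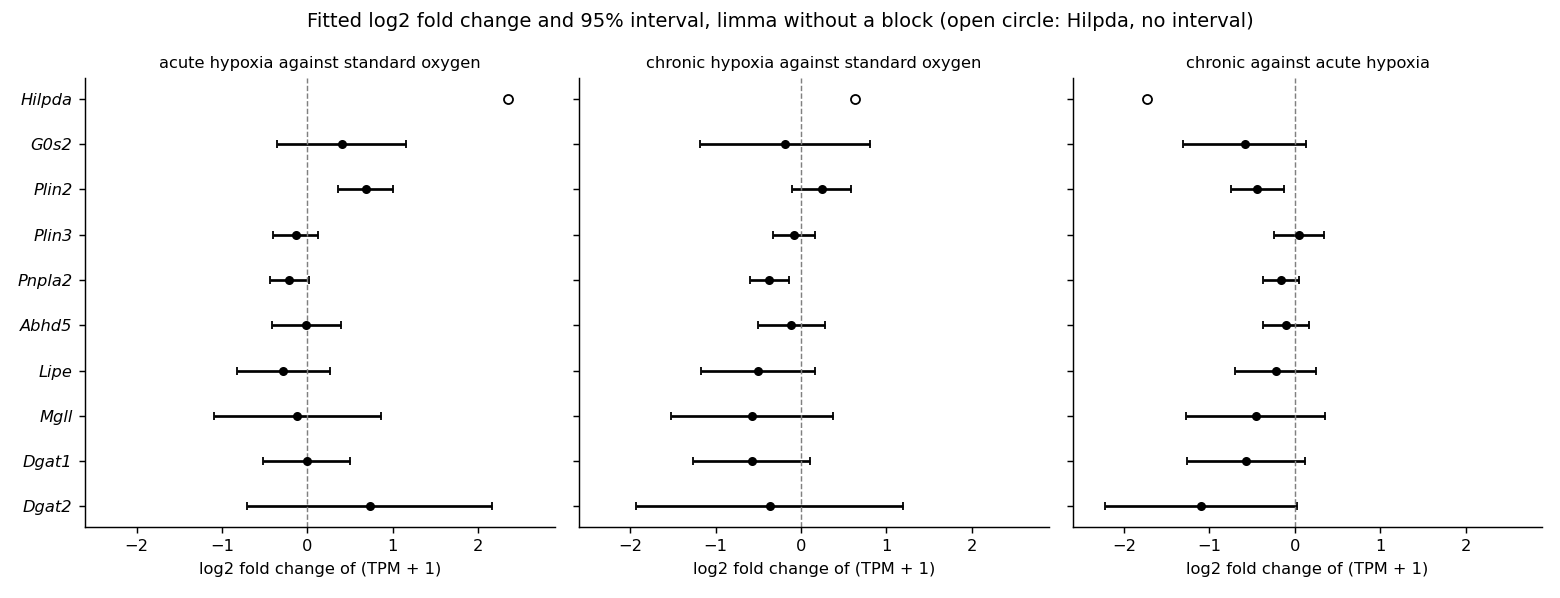
Fitted log2 fold change of (TPM + 1) of each gene (horizontal axes) in the 3 comparisons, with 95% intervals from limma without a block, and Hilpda as an open circle with no interval. The intervals of Plin2 lie above 0 in acute hypoxia against standard oxygen and below 0 in chronic against acute hypoxia, that of Pnpla2 lies below 0 in chronic hypoxia against standard oxygen, and that of Dgat2 is the widest of each panel.

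Differences were also read between the libraries of each code, for the 9 members other than Hilpda. In chronic hypoxia against standard oxygen 5 of 9 (Pnpla2, Lipe, Mgll, Dgat1 and Dgat2) were lower in 3 of 3 code pairs, beside 12.6% of all genes tested, and 0 of 9 were higher in 3 of 3, beside 46.9%. In chronic against acute hypoxia 6 of 9 (Plin2, Pnpla2, Abhd5, Mgll, Dgat1 and Dgat2) were lower in 3 of 3 pairs, beside 12.9%, and 0 of 9 were higher in 3 of 3, beside 43.5%. Mgll reached the filter in both of these comparisons only through the other group, so its place among the lower genes was partly fixed by the filter. In acute hypoxia against standard oxygen 2 of 9 (Plin2 and Dgat2) were higher in 3 of 3, beside 20.9%, and 2 of 9 (Plin3 and Pnpla2) were lower in 3 of 3, beside 16.9%. These counts and shares use TPM as deposited. There the median log2 fold change of all genes tested was 0.162 and 0.143 in the comparisons of chronic hypoxia, which leaves fewer genes lower. Code pairs were not counted after rescaling. The 3 comparisons share libraries and are not independent of each other. In 4 of 10 members (Abhd5, Lipe, Dgat1 and Dgat2) the code Z library was the highest of every group, beside 31.4% of 11065 genes, and in Mgll it was the lowest, beside 11.1%.

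**Figure D3:**
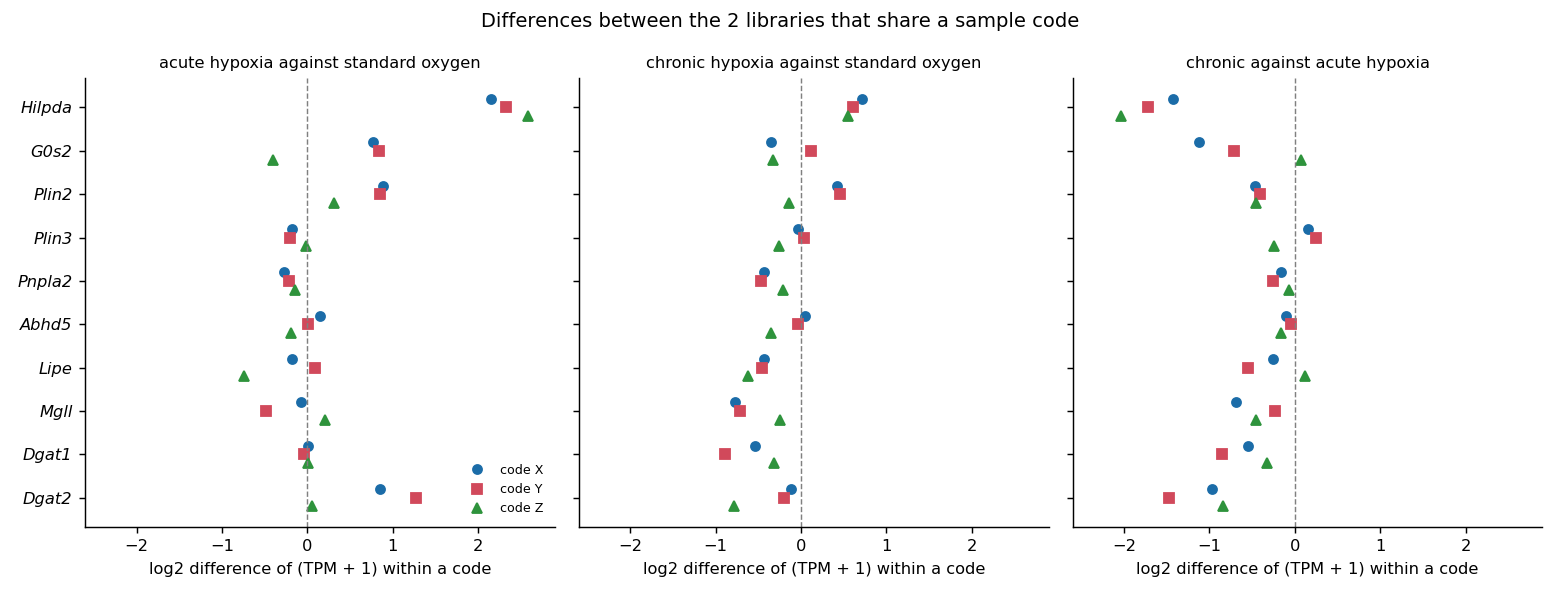
Log2 difference of (TPM + 1) between the 2 libraries of the same code (horizontal axes) for each gene and comparison, with codes X, Y and Z as circles, squares and triangles. The 3 points of Hilpda lie on the right in both comparisons with standard oxygen, those of Dgat1 lie near 0 in acute hypoxia and between -0.89 and -0.31 in chronic hypoxia, and those of G0s2 fall on both sides of 0 in every comparison.

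Ratios within a library do not depend on how libraries are scaled. Hilpda transcripts were 0.825 ± 0.0936 times as many as Pnpla2 transcripts in standard oxygen, 4.98 ± 1.11 times in acute and 1.65 ± 0.0888 times in chronic hypoxia (TPM ratio, SD, n = 3). The 3 groups did not overlap in this ratio, with ranges of 0.759 to 0.932, 4.23 to 6.25 and 1.59 to 1.75. The ratio of G0s2 to Pnpla2 was 0.0867 ± 0.0544 in standard oxygen, 0.123 ± 0.00847 in acute and 0.0926 ± 0.0417 in chronic hypoxia (SD, n = 3), and these groups overlapped. Plin2 exceeded Plin3 by a factor of 18.3 ± 1.94 in standard oxygen, 32.7 ± 6.16 in acute and 22.9 ± 1.29 in chronic hypoxia (SD, n = 3), with no overlap between the 3 ranges. Relative to Plin2, Hilpda was at 0.0583 ± 0.00623 in standard oxygen, 0.191 ± 0.0517 in acute and 0.0763 ± 0.00752 in chronic hypoxia (SD, n = 3). These ratios are of genes chosen with the rise of Hilpda known and carry no test.

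**Figure D4:**
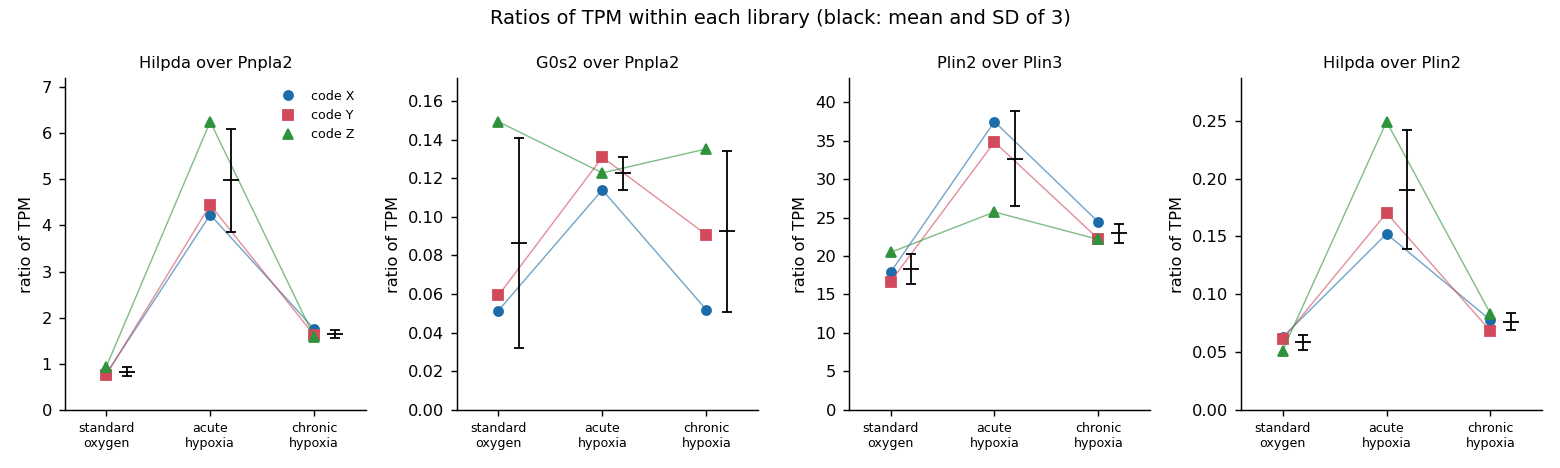
Ratios of TPM within each library (vertical axes from 0) by oxygen group, with 1 point per library, lines joining libraries of the same code and the mean and SD of 3 in black. Hilpda over Pnpla2 and Plin2 over Plin3 are highest in acute hypoxia and do not overlap between groups, while G0s2 over Pnpla2 overlaps between all 3.

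The genes most like a member were taken over the 9 libraries by Pearson's r of log2(TPM + 1) among 8861 genes with a mean of at least 5 TPM. For Hilpda they were Cd44 (r = 0.955), which encodes a hyaluronan receptor, Fam102b (0.951), Mgea5 (0.947), which encodes the enzyme that removes O-linked N-acetylglucosamine, Mxi1 (0.938), a MYC antagonist, and Iqgap1 (0.933), a scaffold protein gene. Cd44 was 162 ± 5.52 TPM in standard oxygen, 252 ± 13.8 in acute and 173 ± 8.19 in chronic hypoxia (SD, n = 3). For Plin2 they were Rmc1 (0.95), Tnfrsf21 (0.947), Cd44 (0.938), Mgea5 (0.935) and Yipf2 (0.924), so that Cd44 and Mgea5 stood in both lists. For G0s2 they were Brpf3 (0.961), Dhx38 (0.957), Hsph1 (0.952), Fcor (0.943) and Supt7l (0.94), none of which was in the lists of the other pair. The r between Hilpda and Plin2 themselves was 0.885, the highest among the members. The 9 points share 3 groups and 3 codes, and these values are a description.

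Beyond the members, 81 other genes of lipid storage and lipolysis in 5 lists were read from the same fits, and 55 of them were tested in each comparison (56 in at least 1 and 54 in all 3). In acute hypoxia 0 of 55 passed in limma without a block, with 7 at an unadjusted p under 0.05, and 1 (Hcar2) passed with the code block, beside 0.0273% and 0.71% of all genes. In chronic hypoxia against standard oxygen 2 were higher and 2 lower without a block, and 5 higher and 10 lower with the code block, in all 4 and 15 of 55 beside 2.69% and 18.4% of all genes. Both counts of higher genes include Gpat3, which reached the filter only through the hypoxia group, so its call was partly fixed by the filter. In chronic against acute hypoxia 1 was higher without a block, and 3 were higher and 5 lower with it, in all 1 and 8 of 55 beside 0.695% and 15.5%. Without code Z 8 of 54, 24 of 55 and 10 of 53 passed in the 3 comparisons, beside 2.95%, 21.1% and 16.3% of all genes. The first and second of these counts also include Gpat3. The second includes Fabp3, lower in chronic hypoxia, which reached the filter there only through its standard oxygen libraries. The calls without a block also depend on single libraries, with 1 left out in turn. Fabp4 was lost without chronic replicate 2 (limma adjusted p 0.0654). Pparg was lost without standard replicate 1 or 3 or chronic replicate 2 (up to 0.103), and Gpat3 and Lrp1 without any of these or chronic replicate 1 (up to 0.155 and 0.187). Pde4b was lost without any library other than chronic replicate 3 (up to 0.239). The median log2 fold change of the 55 tested in each comparison was -0.004, -0.008 and -0.007, beside 0.01, 0.16 and 0.14 for all genes tested.

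Synthesis of triglyceride and sterol ester was covered by 15 tested genes of 21. Gpat3, which encodes an enzyme of the first step of glycerolipid synthesis, had the highest log2 fold change of the 15 in both hypoxia groups. It was 0.491, 0.397 and 0.725 TPM in codes X, Y and Z in standard oxygen, 2.72, 2.56 and 6.17 TPM in acute and 2.97, 5.41 and 3.66 TPM in chronic hypoxia. All hypoxia libraries lay above all standard oxygen libraries, and the gene reached the filter of 1 TPM only through the hypoxia groups, so that it had to be higher there to be tested. It rose in chronic hypoxia, by a log2 fold change of 1.68 ± 0.247 (SE; limma adjusted p 0.0307), and differed by 1.58 ± 0.315 in acute hypoxia (limma adjusted p 0.223, or 0.0769 with the code block). The lowest of the list were Acsl1, a long-chain acyl-CoA synthetase gene, in acute hypoxia (-0.30; limma adjusted p 0.703) and Agpat3, a lysophosphatidic acid acyltransferase gene, in chronic hypoxia against standard oxygen (-0.60) and against acute hypoxia (-0.57). Agpat3 passed with the code block only, with limma adjusted p-values of 0.0407 and 0.0244. With that block Soat1, which encodes the main sterol esterifying enzyme of macrophages, was also lower in chronic hypoxia against standard oxygen (-0.57; limma adjusted p 0.0298). In chronic against acute hypoxia Lpin2 was lower (-0.38; 0.0407) and Acsl3, the highest of the list there, higher (0.73; 0.0473) with the block. Acsl3 did not pass with rescaling added to the block (limma adjusted p 0.0869).

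Of 19 other genes of droplet coats and assembly, 10 were tested and none passed without a block in any of the 3 comparisons. Plin1, Plin4, Plin5, Cidea, Cideb and Cidec, the coat and fusion proteins of fat tissue, muscle and liver, were below the filter. The highest log2 fold changes were 0.25 for Ldah in acute hypoxia, 0.23 for Hsd17b11 in chronic hypoxia against standard oxygen and 0.24 for Hsd17b11 against acute hypoxia. The lowest were -0.38 and -0.56 for Pcyt1a, which encodes an enzyme of phosphatidylcholine synthesis that binds droplets, in acute and chronic hypoxia against standard oxygen, and -0.29 for Ldah in chronic against acute hypoxia. Pcyt1a in chronic hypoxia passed with the code block (limma adjusted p 0.0268). Of the neutral lipid hydrolases 7 of 14 were tested, and none passed without a block. Ddhd2 was the highest in each comparison (0.05, 0.28 and 0.24), Nceh1 the lowest in acute hypoxia (-0.34) and Lpl the lowest in the other two (-0.73 and -0.53). With the code block Lpl, which encodes the secreted lipoprotein lipase, and Nceh1, a cholesterol ester hydrolase gene, were lower in chronic hypoxia against standard oxygen (limma adjusted p 0.0373 and 0.0229).

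Among 14 tested genes for the control of lipolysis, Pparg, which encodes a nuclear receptor that drives lipid storage genes, was lowest against standard oxygen. In codes X, Y and Z it was 34.5, 33.9 and 33.8 TPM in standard oxygen, then 12.8, 12.5 and 18.7 TPM in acute and 16.9, 12.2 and 13.6 TPM in chronic hypoxia. It fell in chronic hypoxia (-1.22 ± 0.136, log2, SE; limma adjusted p 0.0146). In acute hypoxia it differed by -1.18 ± 0.161 (log2, SE), at an adjusted p in limma of 0.0874, which was 0.0435 after rescaling and 0.0514 with the code block. Pde3b, which encodes a phosphodiesterase that restrains lipolysis, had the highest values, 1.32 in acute and 1.62 in chronic hypoxia, for which limma gave adjusted p-values of 0.259 and 0.0629 unblocked and 0.088 and 0.00773 when blocked by code. Pde4b rose from acute to chronic hypoxia (0.88 ± 0.128, log2, SE; limma adjusted p 0.0493, or 0.0819 after rescaling), and the lowest value in that comparison was -0.63 for Ppard. With the code block Hcar2, which encodes an antilipolytic receptor, was higher in acute hypoxia (0.79; limma adjusted p 0.0483, or 0.0576 with rescaling added). Ptger4 was higher (0.93; 0.0226) and Rxra lower (-0.57; 0.0226) in chronic hypoxia against standard oxygen with the block.

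Of 12 genes of fatty acid uptake and transport, 9 were tested. Fabp4, which encodes a cytosolic fatty acid carrier, fell in chronic hypoxia to 92.0 TPM from 291 TPM in standard oxygen, with 188 TPM in acute hypoxia (means of 3). The difference of -1.65 ± 0.126 (log2, SE) reached an adjusted p in limma of 0.0077 unblocked and 0.00713 when blocked by code. In acute hypoxia its value of -0.67, the lowest of the list, did not pass (limma adjusted p 0.561), and from acute to chronic hypoxia it was again the lowest (-0.98), with 0.086 without a block and 0.015 with it. Lrp1, a lipoprotein receptor gene, rose in chronic hypoxia (0.80 ± 0.143, log2, SE; limma adjusted p 0.0444, or 0.0965 after rescaling). Slc27a4 (0.52) in acute hypoxia and Slc27a1 (0.385), also a fatty acid transport protein gene, in chronic against acute hypoxia were the highest in their comparisons and did not pass (limma adjusted p 0.454 and 0.408). With the code block the carrier gene Fabp5 and the scavenger receptor gene Cd36 were lower in chronic hypoxia against standard oxygen (-0.95 and -0.65; limma adjusted p 0.00774 and 0.0131) and against acute hypoxia (-0.71 and -0.76; 0.0298 and 0.0122). With it Slc27a1 was higher against standard oxygen (0.46; 0.0175) and Lrp1 against acute hypoxia (0.37; 0.0284). These rises of Slc27a1 and Lrp1 did not pass with rescaling added to the block (limma adjusted p 0.0533 and 0.113).

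**Figure D5:**
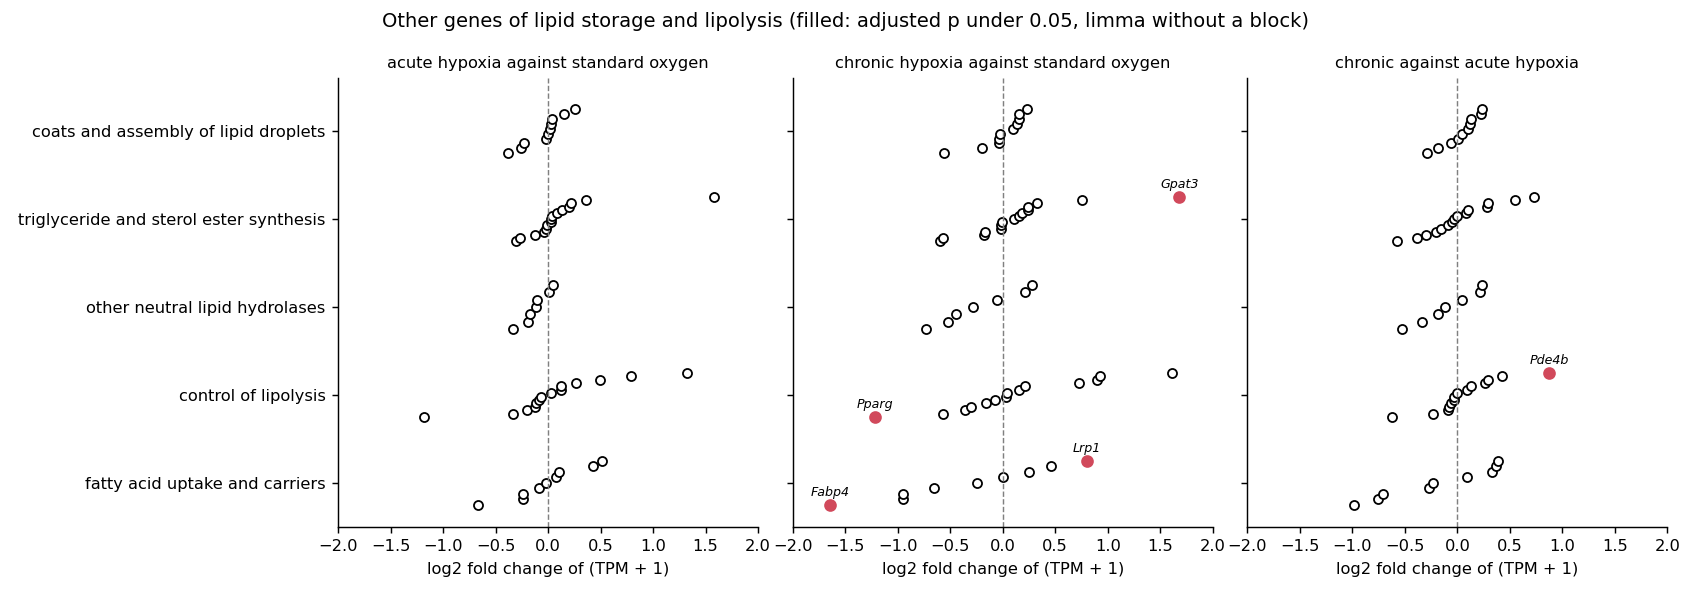
Log2 fold change of (TPM + 1) of the 55 genes tested in each comparison outside the 10 members, by list (rows) and comparison (panels), where filled and named points passed the unblocked limma test at an adjusted p of 0.05. In chronic hypoxia against standard oxygen Gpat3 (1.68) and Lrp1 (0.80) lie on the right and Pparg (-1.22) and Fabp4 (-1.65) on the left, and Pde4b (0.88) is the gene that passed in chronic against acute hypoxia.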

How the data were processed

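The authors deposited 3 tables of TPM, 1 for each pair of groups, with 6 libraries each. Per the submitters' processing notes FastQC, STAR, featureCounts and the GRCm38 build were used, and how TPM was made from them is not given in the sources used here. Each library had identical values in its 2 tables. TPM keeps no depth, so depth is unknown and a share of the total moves when abundant genes move. Symbols were matched for 34582 of 34866 identifiers, and positions and transcripts came from GENCODE M21 on GRCm38.

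Each comparison was fitted on its 6 libraries with limma 3.58.1 in R 4.3.3 on log2(TPM + 1), with an intensity trend and no block, for genes with a mean of at least 1 TPM, and p-values were adjusted by Benjamini-Hochberg over all genes tested. Fold changes on this scale understate low genes. The unblocked fits were tested on simulated data with noise drawn independently for each gene and library. That test had no effect of code and did not cover the fits with a block or without code Z. Deviations of libraries sharing a sample code correlated at r = 0.375 to 0.631 in each pair across genes. Fits with the code as a block are given where they change a call. Because code Z stood apart in every group, these r values do not settle whether codes X and Y pair as labelled. A swap of X and Y was not tried, so fits and counts by code rest on the digits in the descriptions. Title numbers gave a mean r of -0.118 and -0.133 against standard oxygen and 0.536 between the hypoxia groups, where both labels give the same pairs. Of each list the highest, the lowest and the called genes were named. Members, lists and rules were chosen with earlier results of these data known. Some genes of the lists are not reported here.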

Additional observations from a re-analysis of the deposited data

How the results depend on the processing

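Replicate spread over 3 libraries is the only error available, since TPM records no depth. The 10 genes were read under 19 alternatives in each comparison, except where Mgll or Dgat2 was below the filter. Without a block 3, 298 and 77 genes were called in acute against standard, chronic against standard and chronic against acute. The replicate block by sample code gave 78, 2039 and 1724 genes (54, 1267 and 1084 with rescaling added, 204, 2909 and 2450 with all 9 libraries in 1 fit), and the block by title number gave 0, 1 and 1724, with 579 at an unadjusted p under 0.05 for the count of 0. Without code Z 319, 2300 and 1788 were called, and with all 9 libraries in 1 fit and no block 25, 764 and 415. Without the trend the counts were 5, 166 and 25. In acute hypoxia median-of-ratios rescaling gave 21 and quantile normalization 23, and the latter gave 44 in chronic against acute hypoxia. With no filter 120 and 7 were called in the comparisons of chronic hypoxia with standard oxygen and with acute hypoxia. As deposited 77.9% and 79.2% of the calls in these 2 comparisons were higher, and after rescaling 49.4% and 40.7%, since rescaling moved the median of all genes from 0.162 to -0.002 and from 0.143 to 0.

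Leaving out 1 library gave 0 to 33 genes in acute hypoxia (33 without standard replicate 2, 0 without standard replicate 1, 1 without any other), 1 to 522 in chronic hypoxia against standard oxygen (522 and 476 without standard replicate 2 and chronic replicate 3, both of code Z, and 1 to 25 without any other) and 1 to 308 in chronic against acute hypoxia (308 and 90 without chronic and acute replicate 3, and 1 to 4 without any other). Of the 9 genes other than Hilpda 0 passed in each comparison without a block, beside 0.0273%, 2.69% and 0.695% of all genes. In each comparison 1 of the 9 was at an unadjusted p under 0.05. None of the 9 passed when 1 library was left out, where 1 to 6 of all 10 were at an unadjusted p under 0.05. With the block by title number 0 of the 10 passed in both comparisons with standard oxygen, beside 0 and 1 of all genes. In both, 2 of the 10 were at an unadjusted p under 0.05. In chronic against acute hypoxia that block gives the same pairs as the code block. With the code block 3 of 9 passed in both comparisons of chronic hypoxia, beside 18.4% and 15.5% of all genes. The same genes passed with rescaling added, beside 1267 of 11067 and 1084 of 11087 genes. With all 9 libraries in 1 fit and the block, 2909 and 2450 of 11065 genes passed. There Lipe (against standard oxygen) and Plin2 (against acute hypoxia) did not pass. Without code Z the counts were 1 of 9, 3 of 8 and 3 of 9, beside 2.95%, 21.1% and 16.3% of all genes. In chronic hypoxia against standard oxygen 0 of the 10 passed without the trend, after rescaling and after quantile normalization. Of these 10, 2 to 5 were at an unadjusted p under 0.05, and these fits called 166, 233 and 223 of 11067 genes. With all 9 libraries in 1 unblocked fit Pnpla2 passed there, beside 764 of 11065 genes. In chronic against acute hypoxia 0 of the 10 passed with no filter, beside 7 of 19578 genes. There 3 were at an unadjusted p under 0.05.

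Hilpda kept its direction in all of these. Its passes of the threshold are not counted, since its change was known when it was chosen. For the 9 other genes no call was lost, since none was made without a block, and 27 of 501 values passed under an alternative. In chronic against acute hypoxia the blocks by title number and by code are the same fit, so its passes are counted under both. Signs turned only in values that did not pass. Leaving out 1 library moved Abhd5 in acute hypoxia between -0.121 and 0.159 (above 0 without standard replicate 2, acute replicate 1 or acute replicate 2) and in chronic hypoxia against standard oxygen between -0.22 and 0.059 (above 0 without standard replicate 2), and without code Z these were 0.076 and 0.005. It moved Dgat1 in acute hypoxia between -0.183 and 0.16 (above 0 without those same 3 libraries), G0s2 in chronic hypoxia against standard oxygen between -0.484 and 0.183 (above 0 without standard replicate 2 or chronic replicate 1) and Mgll in acute hypoxia between -0.497 and 0.109 (above 0 without standard replicate 1 or 3 or acute replicate 3). Plin3 in chronic against acute hypoxia moved between -0.016 and 0.145 (below 0 without acute replicate 1 or chronic replicate 2), and was -0.102 after rescaling, with or without the block, and -0.056 after quantile normalization. Without code Z it was 0.003 in chronic hypoxia against standard oxygen. Among the other lipid genes the calls of Fabp4, Pparg, Gpat3, Lrp1 and Pde4b were lost in 2, 4, 6, 10 and 12 alternatives, with no sign turned. The causes were not tested.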
